A study of Mus musculus with 9 samples.

Results

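The genes described here build and run the mitotic apparatus: the spindle, the kinetochores that tie chromosomes to it, and the machinery that starts anaphase and splits the cell. The set holds 51 named genes out of 52306 gene names in the deposited table, taken by symbol. It was chosen with earlier results of these data known, so its counts below are not those of a set picked blind to the values. The FPKM of all transcripts that carry a gene's name were summed in each library. The cells were 4T1, a mouse mammary carcinoma line. RNA-seq libraries were made at day 2 from 3 groups of 3: negative control (NC), MK1775 (also called adavosertib, a drug that blocks the kinase activity of Wee1), and Wee1 siRNA as the labels name it. The sources used here give neither the MK1775 dose, nor the siRNA sequences, nor what NC cells received. The titles number the siRNA libraries 1 to 3 with a # sign, and whether the numbers stand for replicates or for different siRNAs is not stated; they are treated as replicates here, and if the siRNAs differed, the SD of that group also holds the difference between them. No label states that the replicates were grown apart, and the p-values therefore reflect variation among these libraries, which may be technical.

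As background, a cell enters mitosis when Cdk1 with cyclin B escapes the inhibitory phosphate that Wee1 places on it. Kinetochores then capture microtubules, the spindle checkpoint holds the anaphase-promoting complex (APC/C) in check until every chromosome is attached, and Cdc20 finally turns the complex on so that securin and cyclin B are destroyed. Most genes of this apparatus are transcribed late in the cell cycle through a promoter letter pattern called CHR, often next to CCAAT boxes, which is read by the MuvB complex together with B-Myb (Mybl2) and Foxm1, or by the repressive DREAM complex. In tumour pathology the same genes, Mki67 and Aurka among them, serve as proliferation markers.

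All values are FPKM, fragments counted per transcript length and per library size, so they are relative within a library and already per length. The summed FPKM of all genes and transcripts lay between 321551 and 332950 per library, and read counts could not be recovered, so the sequencing depth is unknown. Wee1, the targeted gene, measured between 10.5 and 11.5 FPKM in NC, 15.0, 14.7 and 16.8 FPKM with MK1775, and 13.1, 15.1 and 15.3 FPKM in the libraries labelled Wee1 siRNA. It was therefore higher, not lower, in the libraries with the siRNA label (log2 difference 0.37, SE 0.078, adjusted p = 0.00633, limma), and that group is called by its label throughout. The epithelial keratins Krt8 and Krt18 were abundant, above 181 FPKM in every library, while Epcam and Krt14 stayed below 1 FPKM everywhere. The summed level of 9 epithelial markers ran from 434.1 to 497.4 FPKM in NC, 779.5 to 792.3 FPKM with MK1775 and 723.5 to 725.6 FPKM with the siRNA label, and of the 5 that passed the filter 3 rose and 1 fell in both comparisons. Sums of 8 immune, 7 stromal and 4 blood markers reached at most 3.92, 3.95 and 0.724 FPKM in any library, and 4 of the 8 immune markers were listed at 0 in all 9 libraries. The part of these shifts in the results below was not tested.

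The promoters of the set share letters that its definition did not use. In the RefSeq promoter table (build GRCm38.p6, 250 bases before to 50 bases after each start), 43 of the 51 genes were found, with 46 windows. Either CHR spelling, TTTGAA or TTCGAA on either strand, occurred in 35 of the 46 windows (76.1%), against 19.2% of 32851 windows in the whole table. Within 50 bases either side of the start the shares were 65.2% and 5.3%. CCAAT on either strand was found in 69.6% of the windows, against 37.4% of all windows. The E2F spellings TTTCCCGC and TTTGGCGC were found in 6.5% and 1.6%. No CHR letters were in the windows of Birc5, Cenpe, Cks2, Fzr1, Kif18a, Mad2l1, Mybl2, Ncaph, Nuf2, Nusap1 and Pttg1, which says only that these spellings are not in those windows. Because the members below moved in both directions, 4 promoters with CHR letters and 2 without, picked with the genes' responses known, are shown for the 150 bases before the annotated start, read 5′ to 3′ on the gene's strand, with CHR or CCAAT letters of either strand in capitals. Ube2c, Prc1, Kif11 and Cdc20 hold CHR letters, and all 4 genes were higher with MK1775, whereas Nuf2 and Mybl2 hold none there and were lower.
Ube2c: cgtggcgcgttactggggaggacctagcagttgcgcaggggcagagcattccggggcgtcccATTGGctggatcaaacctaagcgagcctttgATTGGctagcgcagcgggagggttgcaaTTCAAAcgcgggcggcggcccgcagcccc
Prc1: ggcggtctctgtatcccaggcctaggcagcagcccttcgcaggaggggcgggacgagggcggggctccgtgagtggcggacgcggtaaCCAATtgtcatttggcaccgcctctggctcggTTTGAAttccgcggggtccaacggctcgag
Kif11: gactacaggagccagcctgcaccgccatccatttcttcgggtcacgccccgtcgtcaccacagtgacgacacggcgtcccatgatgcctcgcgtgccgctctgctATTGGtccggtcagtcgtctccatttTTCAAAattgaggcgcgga
Cdc20: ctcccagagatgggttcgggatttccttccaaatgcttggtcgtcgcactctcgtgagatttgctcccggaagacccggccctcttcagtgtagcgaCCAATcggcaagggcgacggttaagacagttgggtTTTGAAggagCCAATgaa
Nuf2: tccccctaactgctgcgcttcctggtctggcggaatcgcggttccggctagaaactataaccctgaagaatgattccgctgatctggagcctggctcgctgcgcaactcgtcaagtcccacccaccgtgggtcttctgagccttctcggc
Mybl2: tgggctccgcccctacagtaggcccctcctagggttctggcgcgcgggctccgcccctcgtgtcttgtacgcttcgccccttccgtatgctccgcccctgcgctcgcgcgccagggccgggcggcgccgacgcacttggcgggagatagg
In GRCm38.p6 these stretches are, in the same order, chr2:164769779-164769928 on the plus strand, chr7:80294326-80294475 on the plus strand, chr19:37376232-37376381 on the plus strand, chr4:118437344-118437493 on the minus strand, chr1:169531465-169531614 on the minus strand and chr2:163054485-163054634 on the plus strand. In Ube2c the CHR letters begin 29 bases before the start, with CCAAT letters at 57 and 88 bases before it, and in Cdc20 they begin 18 bases before the start. Kif11 has them at 19 bases and Prc1 at 30 bases before the start used here. Genes with the letters were found in every class of response: of the members in the table, 12 of 19 that were higher with MK1775, 3 of 6 that were lower and 17 of 18 that passed no test held a CHR.

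**Figure D1:**
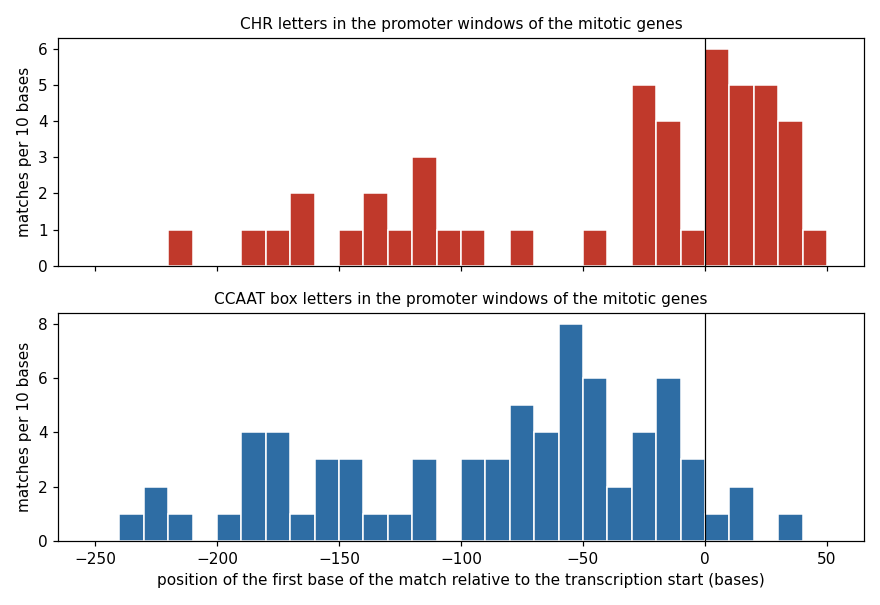
Position of CHR letters (top) and CCAAT letters (bottom) in the 46 promoter windows of the mitotic genes, as matches per 10 bases (vertical axis) against the distance of the first base from the annotated start in bases (horizontal axis). CHR matches crowd within 50 bases of the start, where 65.2% of the windows hold one, and CCAAT matches lie mostly before the start.

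Against NC, 20 of the 51 genes rose with MK1775, 7 fell and 24 passed no test (limma on log2(FPKM + 1), Benjamini-Hochberg adjusted p under 0.05 over 10453 genes). Over all genes tested, 41% were called in this comparison, 17.9% higher and 23.1% lower. The 27 members called are 52.9% of the set, 39.2% higher and 13.7% lower. The median log2 difference of the members was 0.30, against -0.04 over all genes. In the libraries labelled Wee1 siRNA, 18 members rose, 8 fell and 25 passed no test, where 42.8% of all genes were called, 19.6% higher and 23.2% lower. Their median was 0.31, against -0.012 over all genes. Both comparisons share the NC libraries, so the values below are given side by side and are not independent of each other. The 3 values stood clear of the NC values for 23 members above and 8 below with MK1775 (60.8%, against 54% of all genes, 23.8% above and 30.1% below), and for 21 above and 8 below with the siRNA label (56.9%, against 52.2%, 24.1% above and 28.1% below). All 51 members passed the filter of a mean of 1 FPKM. In RNA from whole cultures, more cells in mitosis and more RNA per mitotic cell cannot be told apart.

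**Figure D2:**
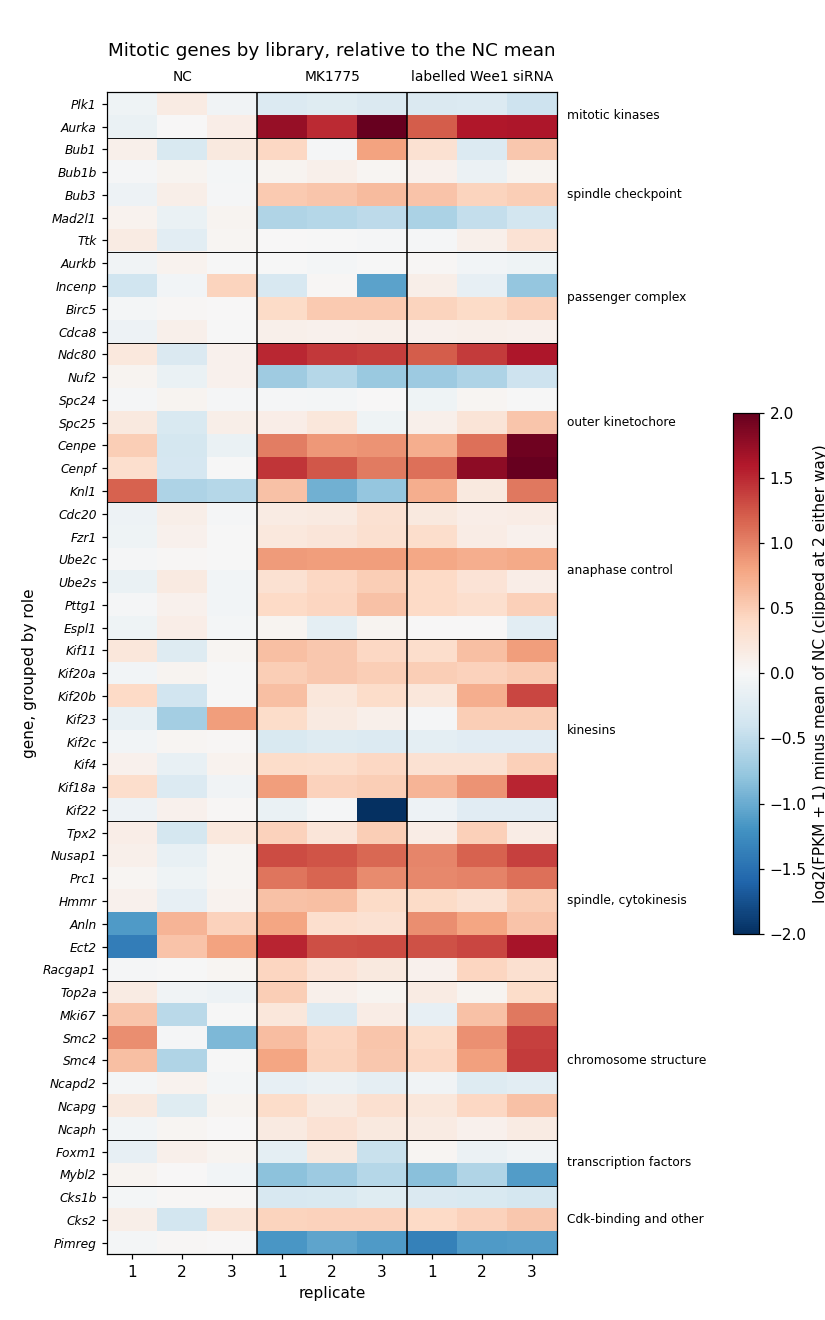
Each gene's log2(FPKM + 1) in each of the 9 libraries minus the mean of the NC libraries (colour, clipped at 2 either way), with genes grouped by role (vertical) and replicates within groups (horizontal). Aurka, Ndc80, Nusap1 and Prc1 are red in all 6 libraries outside NC, Pimreg, Mybl2, Nuf2 and Mad2l1 are blue in all 6, and Anln and Ect2 are low in NC replicate 1.

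The summed level of the set was 2147 ± 42.4 FPKM (SD, n = 3) in NC, 2753 ± 38.4 FPKM with MK1775 and 2723 ± 94.5 FPKM with the siRNA label. The NC libraries held 2099, 2165 and 2178 FPKM, the MK1775 libraries 2795, 2719 and 2746 FPKM, and the siRNA-labelled libraries 2651, 2688 and 2830 FPKM. No library of either group reached down to the NC range. The sum gives most weight to abundant members: Ube2c alone averaged 206.4 FPKM in NC, 370.2 FPKM with MK1775 and 348.5 FPKM with the siRNA label. Of the 51 members, 7 fell and 24 passed no test with MK1775, and 8 fell and 25 passed no test with the siRNA label. Cks1b, Ube2c, Ube2s, Birc5 and Cdc20 were the 5 most abundant members in NC, with Cks1b at 208 and Knl1, the least abundant, at 2.05 FPKM. In that order of NC means, the 3 values overlapped in 46 of the 50 pairs of neighbours, so few neighbouring ranks are distinct. Aurka climbed from rank 19 in NC to rank 5 with MK1775 and rank 7 with the siRNA label. Plk1 moved from rank 7 to ranks 18 and 19, and Pimreg from rank 21 to ranks 38 and 41. These ranks leave out transcripts without a gene name. Such transcripts held 34.12% of the Aurka signal in NC, 16.25% with MK1775 and 25.38% with the siRNA label. With them counted, Aurka averaged 60.79 FPKM in NC, 165.8 FPKM with MK1775 and 152.3 FPKM with the siRNA label, so part of its climb in rank came from this division.

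**Figure D3:**
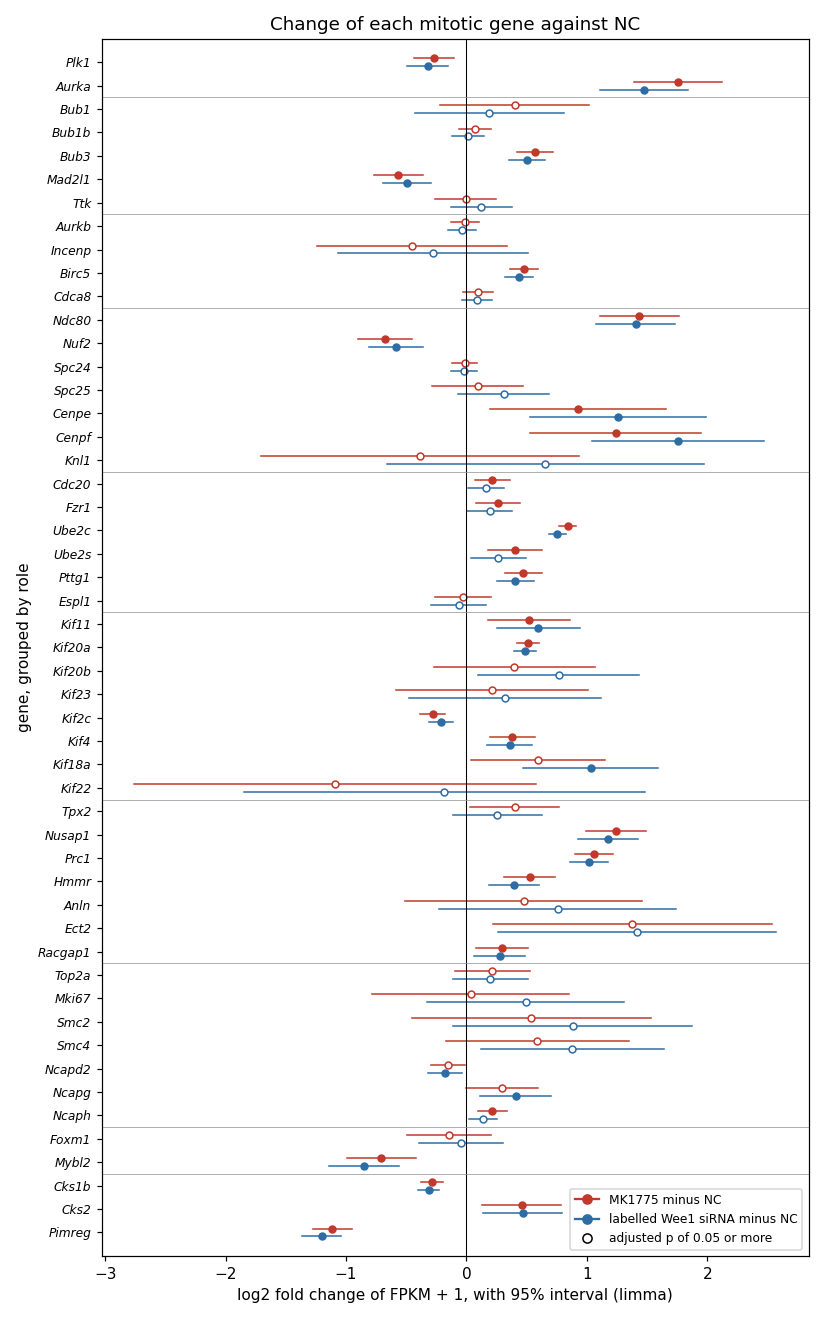
Log2 difference of FPKM + 1 from NC for each of the 51 genes (horizontal axis, with 95% limma intervals), for MK1775 (red) and the libraries labelled Wee1 siRNA (blue). Filled points passed an adjusted p of 0.05, and Aurka at 1.76 and Pimreg at -1.11 are the outermost called genes of the MK1775 comparison.

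The mitotic kinases went in opposite directions. Aurora A (Aurka), which matures centrosomes and builds spindle poles, measured 36.4, 40.0 and 43.7 FPKM in NC, 136, 114 and 167 FPKM with MK1775, and 93.6, 123 and 124 FPKM with the siRNA label. Every library of both groups stood above every NC library, at 3.47 and 2.84 times the NC mean. The log2 differences were 1.76 (SE 0.158, adjusted p = 8.997e-05) and 1.47 (SE 0.158, adjusted p = 0.0002048). Polo-like kinase 1 (Plk1), which acts at centrosomes, kinetochores and the midzone, measured 59.1, 70.4 and 60.0 FPKM in NC, 51.9, 52.8 and 51.4 FPKM with MK1775, and 51.3, 52.2 and 47.1 FPKM with the siRNA label. Its 3 NC values lay above all other values. The differences were -0.27 (SE 0.072, adjusted p = 0.01773) and -0.32 (SE 0.072, adjusted p = 0.007887). Without MK1775 replicate 1 or replicate 3, the adjusted p of Plk1 in the MK1775 comparison became 0.05042 or 0.05274, with differences of -0.27 and -0.26.

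**Figure D4:**
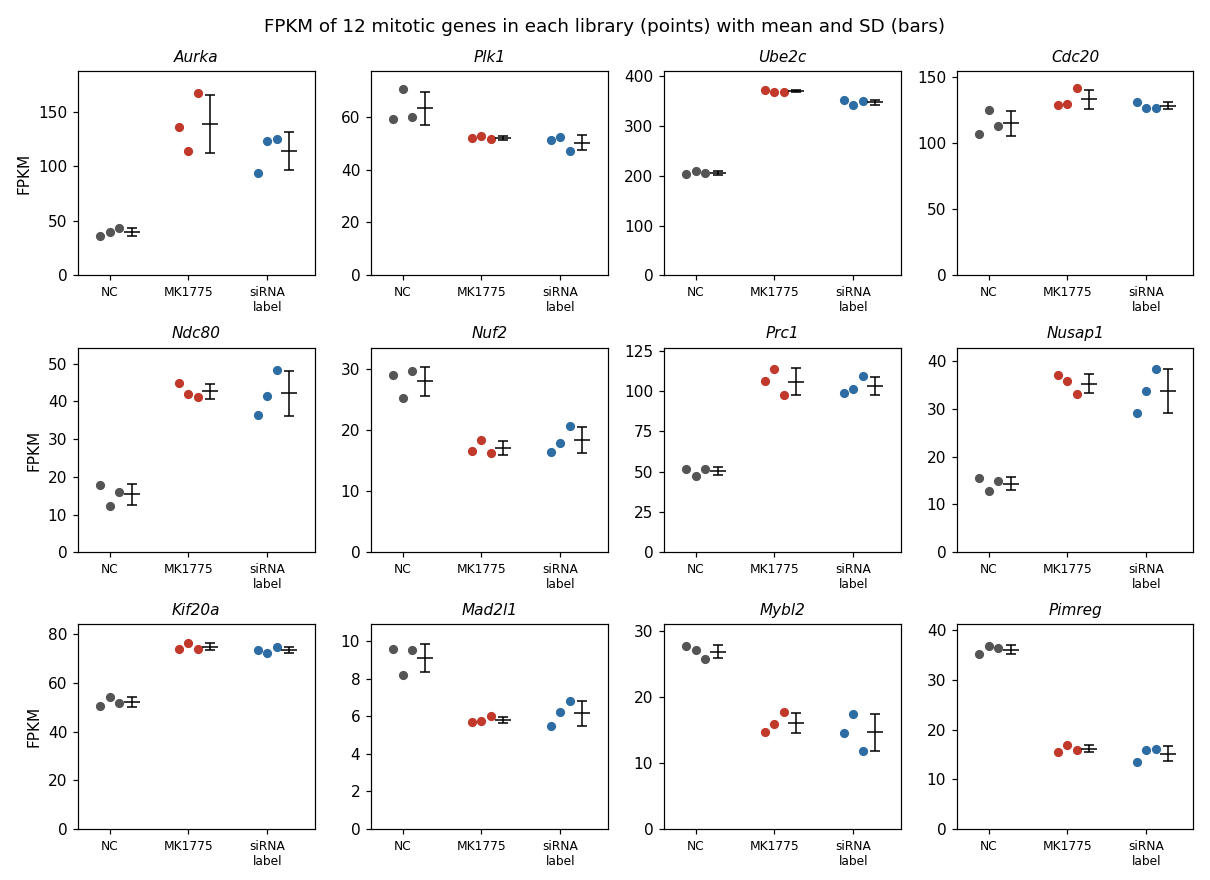
FPKM of 12 mitotic genes in each library (points, vertical axes from 0), with the mean and SD of the 3 libraries of a group beside them. Plk1, Nuf2, Mad2l1, Mybl2 and Pimreg are lower in both groups than in NC, while Aurka, Ube2c, Ndc80, Prc1, Nusap1 and Kif20a are higher, with no overlap of values.

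Among 5 spindle checkpoint genes, Bub3 rose, Mad2l1 fell, and Bub1, Bub1b and Ttk passed no test in either comparison. Bub3, the WD40 protein that brings Bub1 and BubR1 to kinetochores, measured 54.0, 63.6 and 57.6 FPKM in NC, 84.1, 85.8 and 90.8 FPKM with MK1775, and 86.9, 80.0 and 81.9 FPKM with the siRNA label. The differences were 0.57 (SE 0.066, adjusted p = 0.000304) and 0.50 (SE 0.066, adjusted p = 0.0005386). Mad2l1, which codes for the checkpoint protein that binds Cdc20, measured 9.57, 8.23 and 9.53 FPKM in NC, 5.68, 5.77 and 6.01 FPKM with MK1775, and 5.48, 6.25 and 6.80 FPKM with the siRNA label. All 6 values lay below the NC values, with differences of -0.57 (SE 0.087, adjusted p = 0.001309) and -0.50 (SE 0.087, adjusted p = 0.002439). With the most abundant transcript alone neither gene was called: Bub3 was then at 0.49 and -0.31 (adjusted p = 0.397 and 0.594), and Mad2l1 at -0.27 and -0.09 (adjusted p = 0.3956 and 0.7841). In siRNA-labelled replicate 3, that Bub3 transcript fell to 19.95 FPKM while a second one stood at 46.75 FPKM. Bub1b (BubR1) was at 48.6 ± 1.68, 51.1 ± 1.17 and 49.1 ± 3.61 FPKM (SD, n = 3 each), and the 95% interval of its MK1775 difference ran from -0.06 to 0.21. Ttk (Mps1), the kinase that starts checkpoint signalling, was at 10.7, 10.5 and 11.7 FPKM on average.

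The chromosomal passenger complex changed in 1 of its 4 genes. Survivin (Birc5) rose from 114, 119 and 118 FPKM in NC to 153, 169 and 169 FPKM with MK1775 and 161, 153 and 162 FPKM with the siRNA label. The groups did not overlap with NC, and the differences were 0.48 (SE 0.05, adjusted p = 0.0001828) and 0.44 (SE 0.05, adjusted p = 0.0002774). Its partner kinase Aurora B (Aurkb) measured 51.7, 57.3 and 54.4 FPKM in NC, 54.2, 52.9 and 54.4 FPKM with MK1775, and 55.4, 52.5 and 50.97 FPKM with the siRNA label. These values overlapped, and the intervals of the Aurkb differences ran from -0.13 to 0.10 and from -0.16 to 0.08. Its most abundant transcript alone, at 33.2, 42.2 and 40.6 FPKM in NC and 20.3, 30.2 and 22.9 FPKM with the siRNA label, was lower with that label by -0.65 (adjusted p = 0.01374), while a second Aurkb transcript was at 13.7, 11.1 and 9.21 FPKM and at 30.8, 19.1 and 23.4 FPKM. Borealin (Cdca8) measured 47.7, 55.2 and 51.04 FPKM in NC, 55.3, 54.4 and 55.0 FPKM with MK1775, and 54.3, 54.9 and 54.2 FPKM with the siRNA label. Its differences of 0.098 and 0.087 passed no test (adjusted p = 0.1821 and 0.2258), and both passed without NC replicate 2 (0.15 and 0.14, adjusted p = 0.02853 and 0.03667) and with quantile normalization. Cdca8 overlaps the gene 9930104L06Rik. The scaffold Incenp ranged from 9.85 to 30.1 FPKM over the libraries and passed no test. Transcripts without a gene name in its locus held 13.7 FPKM in the lowest library, MK1775 replicate 3, and 5.06 FPKM in the highest, NC replicate 3. Summed over the whole locus, Incenp ranged from 23.55 to 35.14 FPKM, and its differences of -0.19 and -0.13 were not called (limma, adjusted p = 0.1722 and 0.353).

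At the outer kinetochore the 4 subunits of the Ndc80 complex, which bind each other in equal numbers to grip microtubules, did not move together. Ndc80 rose from 17.8, 12.2 and 16.1 FPKM in NC to 45.0, 42.0 and 41.2 FPKM with MK1775 and 36.4, 41.5 and 48.4 FPKM with the siRNA label. These are 2.79 and 2.75 times the NC mean, with log2 differences of 1.44 (SE 0.143, adjusted p = 0.0001434) and 1.41 (SE 0.143, adjusted p = 0.0001541). Nuf2, its direct partner, fell from 28.9, 25.2 and 29.5 FPKM to 16.6, 18.4 and 16.2 FPKM with MK1775 and 16.4, 17.9 and 20.6 FPKM with the siRNA label. Its differences were -0.68 (SE 0.096, adjusted p = 0.0008776) and -0.59 (SE 0.096, adjusted p = 0.001731). Neither gene overlapped with NC in any library, and neither locus held an unnamed transcript. Spc24 stayed between 45.1 and 49.9 FPKM in all 9 libraries, and the 95% intervals of its differences lay within -0.13 and 0.09. Spc25 was at 18.3 ± 3.41, 19.5 ± 2.22 and 22.9 ± 3.86 FPKM (SD, n = 3 each) and passed no test.

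Both large fibrous kinetochore proteins rose. Cenpe, a kinesin that carries chromosomes to the equator, measured 8.49, 4.26 and 5.12 FPKM in NC, 12.7, 11.2 and 11.5 FPKM with MK1775, and 10.1, 13.5 and 24.9 FPKM with the siRNA label. Its differences were 0.93 (SE 0.318, adjusted p = 0.04786) and 1.26 (SE 0.318, adjusted p = 0.01344). The MK1775 call of Cenpe was lost when NC replicate 2 or 3, any 1 of the MK1775 replicates or siRNA-labelled replicate 2 was left out, with adjusted p from 0.0655 to 0.1428. Cenpf, which recruits dynein regulators, measured 7.44, 4.27 and 5.65 FPKM in NC, 16.9, 14.8 and 12.8 FPKM with MK1775, and 13.3, 22.1 and 33.7 FPKM with the siRNA label. Its differences were 1.24 (SE 0.309, adjusted p = 0.0133) and 1.76 (SE 0.309, adjusted p = 0.00239). Knl1, the platform for Bub1 and Bub3, ranged from 0.311 to 4.76 FPKM, with NC replicate 1 at 4.76 and the other two NC libraries below 1 FPKM, and passed no test.

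In anaphase control, 5 of 6 genes rose with MK1775 and 2 of 6 with the siRNA label. Ube2c, the ubiquitin-conjugating enzyme that primes APC/C substrates, had the smallest adjusted p of the set with either treatment. It measured 204, 210 and 205 FPKM in NC, 372, 369 and 370 FPKM with MK1775, and 352, 343 and 350 FPKM with the siRNA label, at 1.79 and 1.69 times the NC mean. The differences were 0.84 (SE 0.03, adjusted p = 8.077e-07) and 0.75 (SE 0.03, adjusted p = 1.372e-06). Securin (Pttg1), the inhibitor of separase, measured 41.9, 45.0 and 40.9 FPKM in NC, 56.1, 57.8 and 64.5 FPKM with MK1775, and 56.4, 54.0 and 59.6 FPKM with the siRNA label. Its differences were 0.47 (SE 0.067, adjusted p = 0.0008434) and 0.40 (SE 0.067, adjusted p = 0.001742). The rise was spread over several Pttg1 transcripts, and the most abundant one alone was at -0.35 and -0.15 (adjusted p = 0.6838 and 0.8729). That transcript ranged from 9.40 to 46.78 FPKM within the MK1775 group.

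Cdc20, the activator that starts anaphase, measured 107, 125 and 113 FPKM in NC, 128, 130 and 141 FPKM with MK1775, and 131, 126 and 127 FPKM with the siRNA label. Neither group overlapped with NC, and the differences were small, at 0.21 (SE 0.064, adjusted p = 0.02768) and 0.16 (SE 0.064, adjusted p = 0.07526). The MK1775 call of Cdc20 was lost without NC replicate 1 or 3 or MK1775 replicate 2 or 3 (adjusted p from 0.05021 to 0.09062), and without NC replicate 2 the siRNA-label difference of Cdc20 was 0.22 (adjusted p = 0.01656). Fzr1 (Cdh1), which drives the complex after anaphase, rose with MK1775 by 0.26 (SE 0.079, adjusted p = 0.0311) and stood at 0.19 with the siRNA label (adjusted p = 0.08692). Leaving out NC replicate 1 or 3, or any 1 of the MK1775 replicates, took the Fzr1 call away (adjusted p from 0.05626 to 0.09728). Ube2s, which extends the ubiquitin chains, averaged 158 ± 18.4, 209 ± 13.3 and 190 ± 18.0 FPKM (SD, n = 3 each). It rose by 0.40 with MK1775 (SE 0.098, adjusted p = 0.01202), while the 0.27 of the siRNA label missed the threshold (adjusted p = 0.06085). It passed in 6 of 23 alternatives, among them without NC replicate 2 or siRNA-labelled replicate 3 (adjusted p = 0.01786 and 0.03918). With its most abundant transcript alone, Ube2s lost the MK1775 call (0.51, adjusted p = 0.2629). Separase (Espl1), the protease that cuts cohesin, was at 9.36, 9.19 and 8.91 FPKM on average and passed no test. Cdc20 overlaps Elovl1, Fzr1 overlaps Mfsd12 and Ube2s overlaps Rpl28, and whether counting used strand is not given in the sources used here.

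Of the 8 kinesins, 3 rose and 1 fell with MK1775, and 4 rose and 1 fell with the siRNA label. Kif20a (MKLP2), which moves the passenger complex to the midzone, measured 50.3, 54.2 and 51.9 FPKM in NC, 74.1, 76.4 and 73.8 FPKM with MK1775, and 73.5, 72.2 and 74.9 FPKM with the siRNA label. The differences were 0.51 (SE 0.04, adjusted p = 4.574e-05) and 0.49 (SE 0.04, adjusted p = 5.749e-05), and the gene overlaps Brd8 and Cdc23. The most abundant Kif20a transcript alone gave 0.32 and 0.08, neither of them called (adjusted p = 0.1503 and 0.7335). Kif2c (MCAK), which takes microtubule ends apart at kinetochores, fell from 21.4, 23.1 and 22.8 FPKM to 18.0, 18.6 and 18.3 FPKM with MK1775 and 19.5, 19.1 and 19.1 FPKM with the siRNA label. Its differences were -0.28 (SE 0.045, adjusted p = 0.0015) and -0.21 (SE 0.045, adjusted p = 0.005923), with no overlap. Kif11 (Eg5), which pushes spindle poles apart, rose by 0.52 (SE 0.149, adjusted p = 0.02434) and 0.59 (SE 0.149, adjusted p = 0.01308), though its MK1775 call was lost without NC replicate 2 or 3 or MK1775 replicate 1 or 2 (adjusted p from 0.0557 to 0.0748). The chromokinesin Kif4 rose by 0.38 and 0.36 (SE 0.081, adjusted p = 0.006601 and 0.007947), and the gene overlaps Pdzd11. Kif18a, which damps chromosome oscillation, averaged 4.75 ± 1.32, 7.61 ± 1.30 and 10.9 ± 3.77 FPKM (SD, n = 3 each). It rose with the siRNA label by 1.03 (SE 0.242, adjusted p = 0.009755), and the 0.60 of MK1775 missed the threshold (adjusted p = 0.08352). That difference passed in 6 of 23 alternatives, among them without NC replicate 1 or siRNA-labelled replicate 3 (adjusted p = 0.04629 and 0.03497).

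Kif20b, a kinesin of late cytokinesis, averaged 4.35, 5.91 and 8.30 FPKM, with differences of 0.40 and 0.76 that passed no test (adjusted p = 0.3194 and 0.06692). Leaving out NC replicate 1 or siRNA-labelled replicate 1 brought the siRNA-label difference of Kif20b to 0.96 or 1.03 (adjusted p = 0.04205 and 0.01914). Kif23 (MKLP1), the kinesin of the centralspindlin complex, and Kif22, a chromokinesin, had named values that swung within groups and are taken up with their unnamed transcripts below.

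Among the spindle and cytokinesis proteins, 4 of 7 rose in each comparison and none fell. Prc1, which bundles midzone microtubules, measured 51.7, 47.4 and 51.6 FPKM in NC, 106, 114 and 97.2 FPKM with MK1775, and 98.7, 101 and 109 FPKM with the siRNA label. Its means were 2.10 and 2.05 times that of NC, with differences of 1.06 (SE 0.069, adjusted p = 1.769e-05) and 1.02 (SE 0.069, adjusted p = 2.092e-05). Nusap1, which links microtubules to chromatin, measured 15.5, 12.8 and 14.8 FPKM in NC, 37.1, 35.8 and 33.1 FPKM with MK1775, and 29.1, 33.8 and 38.4 FPKM with the siRNA label. Its differences were 1.24 (SE 0.108, adjusted p = 7.694e-05) and 1.17 (SE 0.108, adjusted p = 9.583e-05), and the gene overlaps Oip5. Hmmr, a spindle pole protein, averaged 23.4 ± 2.24, 34.0 ± 2.89 and 31.0 ± 2.11 FPKM (SD, n = 3 each) and rose by 0.53 and 0.40 (adjusted p = 0.002354 and 0.008985). Racgap1, the partner of Kif23 in centralspindlin and a GTPase-activating protein, averaged 45.3, 55.9 and 55.3 FPKM and rose by 0.30 and 0.28 (adjusted p = 0.03534 and 0.04402). Both Racgap1 calls could be lost: leaving out any NC replicate, MK1775 replicate 1 or MK1775 replicate 2 took away the first (adjusted p from 0.06974 to 0.1133), and any NC replicate, MK1775 replicate 2, or siRNA-labelled replicate 2 or 3 the second (adjusted p from 0.06332 to 0.1335). Tpx2, Anln and Ect2 passed no test on their named transcripts.

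Of 7 chromosome structure genes, 1 rose with MK1775, and 1 rose and 1 fell with the siRNA label. Ncaph, a condensin I subunit, measured 26.6, 28.8 and 28.1 FPKM in NC, 31.5, 34.1 and 31.9 FPKM with MK1775, and 31.4, 29.7 and 31.2 FPKM with the siRNA label. The MK1775 difference was 0.22 (SE 0.051, adjusted p = 0.01036) and that of the siRNA label 0.14 (SE 0.051, adjusted p = 0.05729). Ncapg, another condensin I subunit, measured 23.2, 16.9 and 20.9 FPKM in NC, 26.4, 23.2 and 25.5 FPKM with MK1775, and 23.8, 27.2 and 30.9 FPKM with the siRNA label, with differences of 0.30 (adjusted p = 0.1021) and 0.41 (adjusted p = 0.03334). The siRNA-label call of Ncapg was lost without NC replicate 2 or 3 or siRNA-labelled replicate 2 or 3 (adjusted p from 0.06479 to 0.1041), and without NC replicate 1 its MK1775 difference was 0.39 (adjusted p = 0.04943). Ncapd2, also of condensin I, was lower with the siRNA label by -0.18 (SE 0.061, adjusted p = 0.044), a call that was lost when any 1 library other than siRNA-labelled replicate 1 was left out (adjusted p from 0.05328 to 0.1367). Its MK1775 difference was -0.15 (adjusted p = 0.082), or -0.15 with adjusted p = 0.04731 without siRNA-labelled replicate 1.

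Top2a, the topoisomerase that untangles sister chromatids, measured 113, 96.1 and 93.5 FPKM in NC, 142, 108 and 105 FPKM with MK1775, and 113, 104 and 130 FPKM with the siRNA label. The ranges overlapped, with adjusted p of 0.246 and 0.2803. Mki67, the Ki-67 antigen that coats mitotic chromosomes, measured 30.1, 13.6 and 20.1 FPKM in NC, 23.9, 16.5 and 22.6 FPKM with MK1775, and 18.0, 30.9 and 42.9 FPKM with the siRNA label. Its spread within groups was so wide that the intervals of its differences ran from -0.78 to 0.85 and from -0.33 to 1.31. The condensin ATPases Smc2 and Smc4 likewise ranged from 4.91 to 20.1 FPKM and from 17.3 to 41.1 FPKM within NC alone. Over all 9 libraries neither passed a test. Without NC replicate 1, Smc2 was called in both comparisons (1.00 and 1.35, adjusted p = 0.04989 and 0.01635). Smc4 was called with the siRNA label without NC replicate 1 or siRNA-labelled replicate 1 (1.18 and 1.11, adjusted p = 0.01898 and 0.03633). With NC replicate 1 and siRNA-labelled replicate 3 both left out, both genes were called in both comparisons, Smc2 at 1.00 and 1.11 (adjusted p = 0.03459 and 0.03601) and Smc4 at 0.89 and 0.92 (adjusted p = 0.02169 and 0.02908). In NC replicate 3, the lowest NC library for Smc2, transcripts without a gene name in its locus held a further 8.43 FPKM. Summed over the whole locus, Smc2 stood at 20.3, 9.81 and 13.3 FPKM in NC. Its differences over all 9 libraries were then 0.11 and 0.45 (limma, adjusted p = 0.7514 and 0.1703), neither of them called.

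The transcription factors of these promoters differed. Mybl2 (B-Myb), which joins MuvB in S phase, measured 27.7, 27.01 and 25.7 FPKM in NC, 14.7, 15.8 and 17.6 FPKM with MK1775, and 14.5, 17.4 and 11.9 FPKM with the siRNA label. Every value lay below the NC values, at 0.60 and 0.54 times the NC mean, with differences of -0.71 (SE 0.125, adjusted p = 0.002554) and -0.85 (SE 0.125, adjusted p = 0.000983). Foxm1, which joins later in G2, measured 17.9, 21.7 and 21.0 FPKM in NC, 17.6, 23.2 and 14.6 FPKM with MK1775, and 20.7, 18.6 and 19.1 FPKM with the siRNA label. The groups overlapped, and the intervals of its differences ran from -0.49 to 0.20 and from -0.40 to 0.30.

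The Cdk-binding proteins Cks1b and Cks2, close relatives that both bind Cdk1, moved apart. Cks1b fell from 203, 210 and 210 FPKM in NC to 166, 168 and 176 FPKM with MK1775 and 170, 169 and 162 FPKM with the siRNA label. The differences were -0.29 (SE 0.038, adjusted p = 0.0006266) and -0.31 (SE 0.038, adjusted p = 0.0003721). Cks2 measured 54.9, 38.9 and 60.8 FPKM in NC, 69.4, 70.3 and 70.5 FPKM with MK1775, and 67.2, 69.8 and 74.3 FPKM with the siRNA label. Its differences were 0.46 (SE 0.142, adjusted p = 0.03226) and 0.47 (SE 0.142, adjusted p = 0.02919). Without NC replicate 2, the low one, the Cks2 differences shrank to 0.27 and 0.28 (adjusted p = 0.01156 and 0.01013), and leaving out any 1 replicate of the treated group took away its call (adjusted p from 0.07367 to 0.07717 with MK1775 and from 0.05014 to 0.08438 with the siRNA label). In NC replicate 2, a Cks2 transcript without a gene name held 12.99 FPKM. Summed over the whole locus, the Cks2 differences were 0.32 and 0.34 (SE 0.061, limma, adjusted p = 0.001456 and 0.0009834). Pimreg, a protein that interacts with the clathrin assembly protein PICALM and peaks in mitosis, fell the furthest of the called members. It measured 35.2, 36.8 and 36.4 FPKM in NC, 15.6, 16.9 and 16.0 FPKM with MK1775, and 13.5, 15.9 and 16.1 FPKM with the siRNA label. These are 0.45 and 0.42 times the NC mean, with differences of -1.11 (SE 0.071, adjusted p = 1.594e-05) and -1.20 (SE 0.071, adjusted p = 1.08e-05).

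MK1775 and the libraries labelled Wee1 siRNA were also compared with each other. No member was called (limma, adjusted p under 0.05), and over all genes 1 of 10453 was, or 0.00957%. The 3 values of the groups stood apart for 2 members higher with MK1775, Ube2c and Ncaph (5.08% of all genes did so), and 1 lower, Kif2c (6.78% of all genes), together 11.9% of all genes. At an unadjusted p under 0.05 there was 1 member, Ube2c, and 616 genes in all. Ube2c was at 372, 369 and 370 FPKM with MK1775 and 352, 343 and 350 FPKM with the siRNA label, a difference of 0.087 (95% interval 0.017 to 0.16, adjusted p = 0.7588). For 34 of the 51 genes the 95% interval of the difference lay within 0.5 log2 either way, and for 10 it reached past 1. Those 10 were Cenpe, Cenpf, Knl1, Kif20b, Kif22, Anln, Ect2, Mki67, Smc2 and Smc4, so for these genes the data do not limit the difference closely. Cenpf, for example, differed by -0.52 with an interval from -1.23 to 0.19. For Aurka the interval ran from -0.08 to 0.65, and for Pimreg from -0.08 to 0.25.

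For 35 of the 51 genes the deposited table also lists assembled transcripts that lie in the gene's locus and carry no gene name, and how the signal was divided between named and unnamed transcripts varied from library to library. Ect2, a protein needed for cleavage furrow formation (chr3:27151371-27208091, GRCm39, minus strand), is the clearest case. Its named transcripts measured 7.04, 29.9 and 35.7 FPKM in NC, while the unnamed ones measured 33.2, 2.53 and 1.90 FPKM in the same libraries. Summed over the whole locus, Ect2 stood at 40.2, 32.4 and 37.6 FPKM in NC, 61.9, 58.5 and 56.9 FPKM with MK1775, and 52.8, 57.9 and 67.4 FPKM with the siRNA label. On named transcripts its differences of 1.38 and 1.42 missed the threshold (adjusted p = 0.05892 and 0.0513). Over the whole locus they were 0.68 and 0.68 (SE 0.097, adjusted p = 0.0002268 and 0.0002168). On named transcripts alone but without NC replicate 1, the Ect2 differences were 0.69 and 0.73 (adjusted p = 0.007405 and 0.005525). Dropping NC replicate 3 gave 1.78 and 1.82 (adjusted p = 0.02929 and 0.02566), and dropping NC replicate 2 gave 1.70 with the siRNA label (adjusted p = 0.04872).

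**Figure D5:**
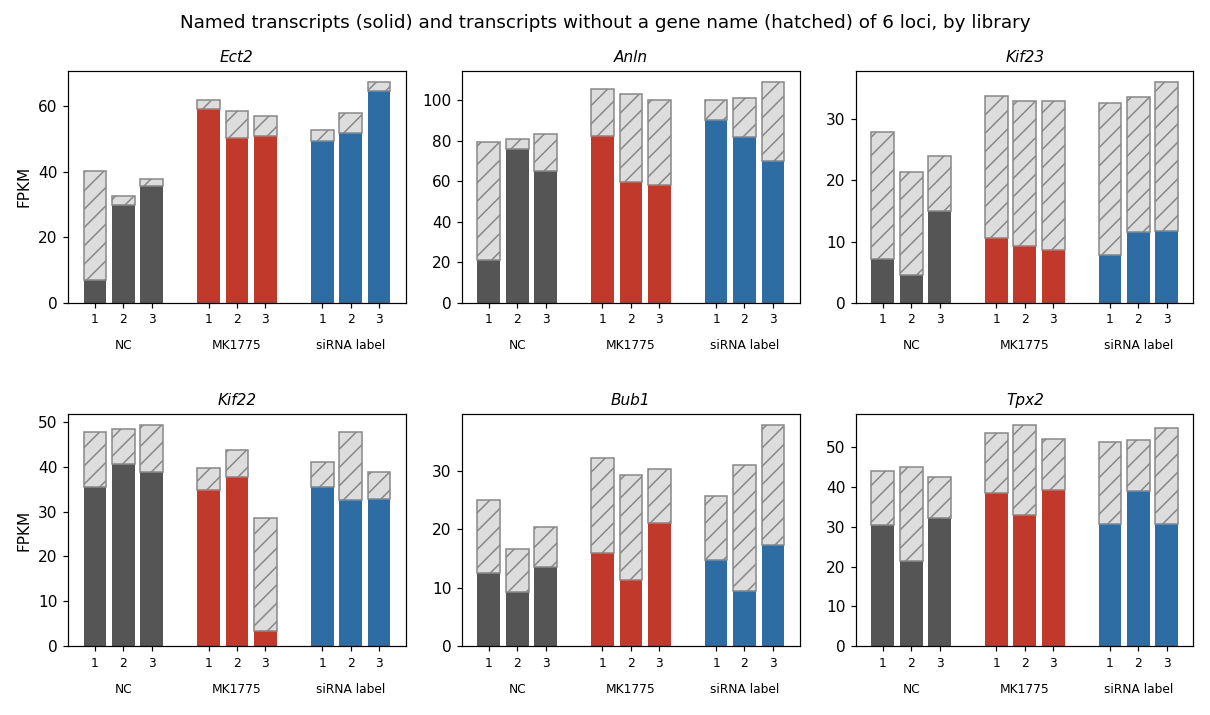
FPKM of named transcripts (solid) and of transcripts without a gene name in the same locus (hatched), stacked for each library of 6 genes, with vertical axes from 0. In NC replicate 1 most of the Ect2 and Anln bars is hatched, in MK1775 replicate 3 most of the Kif22 bar is, and the full bars of Ect2, Anln, Kif23 and Tpx2 are higher in both groups than in NC.

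Over whole loci, Anln, Kif23, Bub1, Tpx2 and Top2a also gained a call in both comparisons. Anillin (Anln), the scaffold of the contractile ring, was at 20.9, 75.9 and 65.0 FPKM in NC on named transcripts but at 79.5, 81.0 and 83.4 FPKM over the whole locus. With MK1775 its whole-locus values were 105, 103 and 100.1 FPKM and with the siRNA label 100.2, 101 and 109 FPKM, which lie above NC throughout. The Anln differences were then 0.34 and 0.34 (SE 0.047, adjusted p = 0.000188 and 0.0001559). Kif23 rose over the whole locus by 0.44 and 0.47 (SE 0.085, adjusted p = 0.001573 and 0.0009009), with unnamed transcripts holding 63.6% of its signal in NC, 71.6% with MK1775 and 69.6% with the siRNA label. On named transcripts alone, Kif23 reached 0.74 with the siRNA label without NC replicate 3 (adjusted p = 0.03432). Bub1 rose by 0.56 and 0.58 (SE 0.152, adjusted p = 0.01091 and 0.008369), Tpx2, the activator of Aurora A, by 0.29 and 0.26 (SE 0.047, adjusted p = 0.0005418 and 0.001036), and Top2a by 0.39 and 0.38 (SE 0.096, adjusted p = 0.00628 and 0.006801).

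Counted this way over whole loci, 28 members rose and 9 fell with MK1775, and 29 rose and 9 fell with the siRNA label, in a fit where 56.1% and 59.2% of all loci were called. The share of all loci called higher was 26.8% and 30.3%, and lower 29.3% and 29%. With the unnamed transcripts added only where a locus holds 1 gene name, 27 rose and 7 fell, and 27 rose and 9 fell, where 54.1% and 56.2% of all genes were called. Kif18a and Ncapg then passed with MK1775 too (whole-locus differences 0.94 and 0.38, adjusted p = 0.008717 and 0.01845). With the siRNA label, Smc4 and Kif20b rose (0.95 and 0.76, adjusted p = 0.01944 and 0.03144) and Espl1 fell (-0.22, adjusted p = 0.03606). Cdc20, Ube2s and Ncaph, which carry almost no unnamed signal, also crossed the threshold with the siRNA label in the whole-locus fit (adjusted p = 0.04795, 0.02902 and 0.03836), and Ncapd2 did with MK1775 (-0.15, adjusted p = 0.04716). Aurka kept its rise, at 1.44 and 1.31 (SE 0.064, adjusted p = 7.729e-08 and 1.258e-07), with whole-locus values of 55.1, 64.1 and 63.2 FPKM in NC and 148 FPKM or more in every other library.

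Kif22 (chr7:126626901-126641643, GRCm39, minus strand) needs care, since the table joins its locus with that of Maz. Its named transcripts measured 35.4, 40.6 and 38.9 FPKM in NC, 34.9, 37.7 and 3.49 FPKM with MK1775, and 35.5, 32.6 and 32.7 FPKM with the siRNA label. In MK1775 replicate 3, the low library, unnamed transcripts of the locus measured 24.97 FPKM, against 4.80 and 5.91 FPKM in the other two MK1775 libraries. The whole-locus difference of -0.54 (SE 0.168, adjusted p = 0.02084) with MK1775 counts Maz as well as Kif22. Top2a, Foxm1, Mybl2 and Ncapd2 share their loci with other gene names too. Whole-locus values left Foxm1 and Mki67 without a call, with adjusted p of 0.452 and 0.7972 for Foxm1 and 0.8253 and 0.1323 for Mki67.

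Some of the spread within groups went with transcript length. Each library's deviation was taken from the mean of the other libraries of its group. For the 9 members whose transcripts average at least 5 kb, weighted by FPKM, the median deviation was 0.60 log2 in NC replicate 1 and -0.51 in NC replicate 2. It was -0.77 in siRNA-labelled replicate 1 and 0.72 in siRNA-labelled replicate 3. For the 18 members under 2.5 kb it was -0.057, 0.057, 0.008 and 0.015 in the same libraries. Across all genes of at least 5 kb the medians were 0.085, -0.067, -0.043 and 0.066. In MK1775 replicates 1, 2 and 3 the medians of the 9 long members were 0.277, -0.21 and -0.051. For the 18 short members they were -0.021, -0.014 and 0.017 there, and across all genes of at least 5 kb 0.008, 0.006 and -0.003. Cenpf, Mki67, Cenpe, Mad2l1, Knl1, Espl1 and Anln are among the long members. Espl1 and Anln went against the median: on named transcripts both were lowest of their groups in NC replicate 1 and in siRNA-labelled replicate 3. In 29 of the 51 genes, siRNA-labelled replicate 3 was the highest of its group. The part of this pattern in the differences from NC was not tested. With NC replicate 1 and siRNA-labelled replicate 3 both left out, 21 members rose and 7 fell with MK1775, where 40.4% of all genes were called, 18% higher and 22.4% lower. With the siRNA label 19 rose and 7 fell, where 37.2% were called, 16.8% higher and 20.4% lower. The median coefficient of variation over the members was 9.75% in NC, 6.75% with MK1775 and 10.8% with the siRNA label.

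Other genes of the same pathways were read from 8 lists holding 111 genes, of which 110 passed the filter. With MK1775, 29 rose and 20 fell, and with the siRNA label 28 rose and 19 fell, with medians of 0.079 and 0.099. These 49 and 47 called of 110 are near the shares over all genes tested, 41% with MK1775 and 42.8% with the siRNA label. Of all genes, 17.9% and 19.6% were called higher and 23.1% and 23.2% lower. The counts of each list below are to be read against those shares. Among 14 core subunits of the APC/C, 4 rose and 4 fell with MK1775 and 4 rose and 3 fell with the siRNA label. Anapc15, which helps release the checkpoint complex, went from 3.03 ± 0.377 to 5.60 ± 0.526 and 5.10 ± 0.3202 FPKM, and Anapc13 from 9.34 ± 0.542 to 12.8 ± 0.379 and 13.2 ± 0.912 FPKM (SD, n = 3 each). Anapc15 rose less over its whole locus, by 0.25 and 0.24 (adjusted p = 0.002468 and 0.003074). Of 24 inner kinetochore and Mis12 genes, 6 rose and 4 fell with MK1775, and 4 rose and 4 fell with the siRNA label. Cenpn, which reads the centromeric nucleosome, rose from 18.5 ± 0.627 to 28.3 ± 0.434 and 29.0 ± 1.92 FPKM. Mis12, which joins inner and outer kinetochore, rose from 12.98 ± 0.777 to 18.3 ± 0.611 and 18.1 ± 0.270 FPKM. With the most abundant transcript alone, Anapc13 was at 0.23 and 0.22 (adjusted p = 0.06074 and 0.07277) and Mis12 at -0.007 and 0.19 (adjusted p = 0.9672 and 0.2207), none of them called.

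Of 14 other checkpoint and attachment genes, 6 rose and 4 fell with MK1775 and 5 rose and 3 fell with the siRNA label. Zwilch, of the RZZ complex, rose from 17.1 ± 1.57 to 33.8 ± 0.833 and 35.2 ± 3.34 FPKM, while Ska1, which helps Ndc80 hold a shrinking microtubule, fell from 6.44 ± 0.589 to 2.75 ± 0.263 and 2.80 ± 0.305 FPKM. Of 12 cohesin genes, 1 rose with MK1775 and 4 with the siRNA label, and none fell. Smc1a rose from 18.4 ± 4.81 to 34.2 ± 1.73 and 40.6 ± 9.37 FPKM. Smc3 stood at 12.5 ± 3.17, 19.8 ± 1.67 and 26.1 ± 9.47 FPKM, with differences of 0.65 (adjusted p = 0.08182) and 0.97 (adjusted p = 0.01738). The siRNA-label call of Smc3 was lost without NC replicate 2 (0.80, adjusted p = 0.05968), and the MK1775 difference of 0.65 passed without siRNA-labelled replicate 1 or 3 (adjusted p = 0.03385 and 0.03882). Of the 3 condensin II genes, 2 fell in both comparisons, Ncapd3 from 9.69 ± 0.492 to 7.36 ± 0.199 and 7.61 ± 0.463 FPKM and Ncaph2 from 46.0 ± 3.82 to 37.8 ± 1.10 and 36.8 ± 0.299 FPKM. The most abundant transcript alone left both without a call, Ncapd3 at -1.09 and -0.87 (adjusted p = 0.2748 and 0.3739) and Ncaph2 at -1.31 and -0.51 (adjusted p = 0.07006 and 0.4507).

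Among 21 other spindle and centrosome genes, 5 rose and 1 fell in each comparison. The kinesin Kif18b rose from 16.3 ± 1.41 to 37.8 ± 0.870 and 36.6 ± 1.63 FPKM, and the centrosome kinase Nek2 from 23.2 ± 1.65 to 48.6 ± 2.43 and 46.7 ± 4.55 FPKM. Of 10 DREAM and MuvB subunits tested, 2 rose and 3 fell with MK1775 and 2 rose and 4 fell with the siRNA label. Rbl1 (p107), a pocket protein of DREAM, rose from 13.9 ± 0.991 to 21.2 ± 0.374 and 20.8 ± 1.11 FPKM, and the MuvB subunit Lin37 from 4.15 ± 0.605 to 7.30 ± 0.222 and 6.71 ± 0.864 FPKM. Of 12 mitotic entry genes, 5 rose and 2 fell with MK1775 and 4 rose and 2 fell with the siRNA label. Cyclin B1 (Ccnb1) rose from 76.7 ± 2.22 to 122.5 ± 1.88 and 117.9 ± 7.499 FPKM, and Ensa, an inhibitor of the phosphatase PP2A-B55 in mitosis, from 18.2 ± 1.63 to 27.6 ± 1.29 and 26.5 ± 0.971 FPKM.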

How the data were processed

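RNA-seq of 9 libraries (3 groups of 3) was used. The labels' protocols name the RNeasy Mini Plus kit for extraction and NEBNext Ultra for library preparation. FastQC, Trim Galore, HISAT2, StringTie and the build GRCm39 are named in the submitters' processing notes. The authors deposited FPKM per transcript and library for 158719 transcripts, 17991 of them without a gene name, and no counts were used. At low FPKM, 20.8% to 22.0% of values per library lay within 0.1 of a whole multiple of a common step, so reads were not recovered and depth is unknown.

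FPKM were summed by gene name (19 names on more than 1 chromosome left out), 10453 genes averaging 1 FPKM or more were kept, and log2(FPKM + 1) was fitted with limma 3.58.1 in R 4.3.3 (3 group means over 9 libraries, eBayes with trend, two-sided, Benjamini-Hochberg over all genes). The added 1 shrinks the fold changes of low genes. The fit was tested on simulated data. Given only 3 values a group, an exact permutation test could not go below 0.1, so none was used. Values in every library are given for Plk1, Aurkb, Cdc20, Foxm1, Mybl2, Top2a and Mki67 and for the 2 members of each role with the smallest adjusted p against NC; those of Cenpe, Cenpf, Cks2, Ect2, Anln and Kif22 were added after values were seen. Of each other list, the 2 genes with the smallest adjusted p with MK1775 are named. The members and lists were chosen with earlier results of these data known. In all, 21 alternatives were planned and 2 were added after seeing the data (the whole locus, and leaving out 2 libraries together). Gene positions are given in GRCm39, from that table. Promoter sequences are from RefSeq (GRCm38.p6). Python 3.11.15 with pandas 2.3.3 made the summaries.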

Additional observations from a re-analysis of the deposited data

Results flagged for a closer look

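Transcripts without a gene name, which the main values leave out, carried signal in the loci of the mitotic genes above the level in the control libraries. Their summed FPKM was 325.0 ± 19.8 (SD, n = 3) in the libraries labelled Wee1 siRNA, at 305.0, 325.5 and 344.6 FPKM, against 248.0 ± 47.6 FPKM in NC, at 302.9, 219.8 and 221.3 FPKM. All 3 values lie above the 3 NC values, though the lowest exceeds the highest NC value by little. With MK1775 the sum was 330.2 ± 43.6 FPKM, at 281.4, 365.3 and 343.9 FPKM, which overlaps NC. As a share of the members' whole-locus signal the unnamed transcripts averaged 10.4% in NC, 10.7% with MK1775 and 10.7% with the siRNA label.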

How the results depend on the processing

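The counts of members called stayed within 1.5 times their main values under all 23 alternatives, from 19 to 37 called with MK1775 (main 27) and from 22 to 38 with the siRNA label (main 26), and no member was called between MK1775 and the siRNA label under any of them. Over all genes, the share called under these alternatives ran from 17.7% to 56.1% with MK1775 and from 20.2% to 59.2% with the siRNA label. Leaving out 1 library at a time gave 21 to 28 and 22 to 28, where 34.1% to 41.7% and 35.8% to 41.6% of all genes were called. Of the 27 genes called with MK1775, 15 were called under every alternative and 12 were lost under at least 1 (Plk1, Bub3, Mad2l1, Cenpe, Cdc20, Fzr1, Ube2s, Pttg1, Kif11, Kif20a, Racgap1 and Cks2). Of the 26 called with the siRNA label, 18 were called under every alternative and 8 were lost under at least 1 (Bub3, Mad2l1, Pttg1, Kif20a, Racgap1, Ncapd2, Ncapg and Cks2). Of the members not called, 13 of 24 with MK1775 and 16 of 25 with the siRNA label gained a call under at least 1. How many of all genes kept, lost or gained a call was not counted, so these numbers are not a property of the set. With only the most abundant transcript of each gene, 13 members rose and 6 fell with MK1775 and 14 rose and 8 fell with the siRNA label (32.2% and 34.1% of all genes called), and 4 named differences changed sign: Bub3 with the siRNA label (-0.309), Pttg1 with MK1775 (-0.354) and with the siRNA label (-0.145), and Mis12 with MK1775 (-0.007). In 122 further cases a difference that was called neither in the main analysis nor in the alternative changed sign. Without the filter on low values 14 rose and 7 fell with MK1775 and 15 rose and 7 fell with the siRNA label (17.7% and 20.2% of all genes called).

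The median difference between MK1775 and the siRNA label, 0.019, became 0.061 with median-of-ratios size factors and -0.021 with the most abundant transcript, and ran from -0.014 to 0.019 when 1 library was left out. The summed level with unnamed transcripts added was 2305 FPKM in NC, 2951 FPKM with MK1775 and 2921 FPKM with the siRNA label. The cause of these shifts was not tested. The replicate numbers did not pair the samples: deviations of same-numbered libraries correlated at -0.12 to 0.043 and those of other numbers at -0.155 to 0.182. With the replicate block, 16 members rose and 7 fell with MK1775 (23 called) and 17 rose and 7 fell with the siRNA label (24 called), where 37.1% and 39% of all genes were called, and 0 were called between them.

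FPKM are relative, depth is unknown, and 3 libraries a group limit the precision. The libraries labelled Wee1 siRNA showed no lower Wee1 level.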
